A study of Mus musculus with 20 samples.

Results

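Axon guidance ligands and receptors were followed in retinas of Nrl-/- mice between 1 and 10 months of age. The genes were chosen by name, as all genes of the array's gene table that belong to the semaphorins (Sema), plexins (Plxn), neuropilins (Nrp1, Nrp2), ephrins (Efna, Efnb), Eph receptors (Epha, Ephb), Slits, Robos, netrins (Ntn1, Ntn3, Ntn4, Ntng) and netrin receptors (Dcc, Unc5). Of 67 such symbols, 65 had probe sets of their own among 15781 genes measured, and 63 were bright enough to be tested among 11836 genes. Nrp2 and Ntng2 were listed only in probe sets that name several genes and are not given values. Epha1 (mean log2 level 5.04) and Unc5cl (5.16) lay below the limit of 5.61 under which genes were left out as dim. Unc50 and Unc5cl met the rule by the start of their names only and are not Unc5 receptors. The tested genes were 18 semaphorins, 9 plexins and neuropilins, 7 ephrins, 13 Eph receptors, 2 Slits, 4 Robos, 4 netrins, 5 netrin receptors and Unc50.

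All mice carried the same genotype, Nrl-/-, on the C57Bl/6J strain. Nrl encodes a transcription factor needed to make rods, and retinas without it hold cone-like photoreceptors in their place. By the labels the groups differed only in age: 1, 2, 4, 6 or 10 months. Each age had 4 mice, and 1 array measured the pooled RNA of both retinas of a mouse. No wild-type retinas were analysed here, so the effect of losing Nrl and that of normal maturation or ageing cannot be told apart. The title of the series names a passing degeneration and remodeling, and the ages were compared to describe how guidance genes changed over that course.

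Axon guidance ligands tell growing neurites where to go and where to stop, and many stay expressed in the adult nervous system, where they act on synapses and vessels. Secreted and membrane-bound semaphorins signal through plexins, with neuropilins as co-receptors for several secreted ones. Ephrins are held on the cell surface and bind Eph receptor tyrosine kinases on neighbouring cells, which sort into A and B classes by ligand preference. Slits repel through Robo receptors, and netrins attract through Dcc and repel through Unc5 receptors. In the retina these systems steer ganglion cell axons to the optic disc and to their targets, keep inner retinal neurites within their layers, and shape the vessels.

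Levels are log2 values of probe set signals summarised per gene, so a difference of 1 is a doubling, and each stated difference is between the means of 4 arrays. A gene was called changed where limma's adjusted p over all tested genes was under 0.05. Values of different genes come from different probes and were not set against each other. Arrays of an age correlated at 0.966 to 0.995 with each other. The array of replicate 4 at 4 months had the lowest mean correlation with all others, 0.974. Cone genes of the labelled tissue were bright on all 20 arrays, with Opn1sw at 13.5 to 13.8, Arr3 at 11.8 to 12.5 and Gnat2 at 12.9 to 13.1. Nrl gave 5.97 to 6.54, which does not check the genotype without a wild-type array. The mean level of the Y-linked genes Eif2s3y and Kdm5d, the 2 of 4 listed that were measured, was 4.00 to 4.28 on all arrays of 2 months and 4.13 and 4.42 on replicates 2 and 3 of 10 months. On the remaining arrays it was 7.33 to 8.28, and the labels give no sex. Age and Y-linked level therefore cannot be told apart at 2 months. Pigment epithelium genes (9 of 10 measured) averaged 6.53 to 8.34 at 10 months against 6.57 to 7.31 at the other 4 ages. Since each array measured a whole retina, a lower level from fewer cells of a type and one from less RNA per cell cannot be told apart.

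Of 63 guidance genes tested, 20 were called higher and 8 lower at 10 months than at 1 month. Calls were made from 1 to 2, from 1 to 4 and from 6 to 10 months and none from 2 to 4 or 4 to 6 months, a course close to that of all genes tested. Between 1 and 10 months 28 of the 63 members were called (44.4%, against 41.4% of all tested genes). The split was 20 higher and 8 lower, while all genes divided into 20.6% called higher and 20.8% called lower. The median member differed by 0.13 and the median of all genes by 0.04. The median size of the difference, sign ignored, was 0.21 for members and 0.19 for all genes, so the share called and the sizes lay near the background. Arrays of 1 and 10 months did not overlap for 25 members, against 35.8% of all genes.

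From 1 to 4 months 16 members were called, 9 higher and 7 lower (25.4%, against 15.2% of all genes, of which 6.9% were higher and 8.26% lower). Between 1 and 2 months 6 were called, 1 higher and 5 lower (9.52% against 8.52%, of which 3.3% higher and 5.22% lower). None was called between 2 and 4 months, where the background of calls was 0.127% (0.076% higher, 0.0507% lower). There 6 of 63 members and 959 of all 11836 genes had an unadjusted p under 0.05 in limma. None was called between 4 and 6 months, where the smallest adjusted p was 0.895 and the background of calls was 0%. There 1 member and 531 of all genes had an unadjusted p under 0.05 in limma. From 6 to 10 months 14 were called, 9 higher and 5 lower (22.2% against 20.3%, of which 8.56% higher and 11.7% lower), and from 4 to 10 months 12, 9 higher and 3 lower (19% against 21.9%, of which 10.2% higher and 11.7% lower). Arrays of both ages did not overlap for 12 members from 1 to 2 months (17.1% of all genes), 17 from 1 to 4 (18%), 4 from 2 to 4 (5.74%), 2 from 4 to 6 (2.49%), 18 from 6 to 10 (22.7%) and 14 from 4 to 10 months (19.3%). Comparisons with 1 month share the arrays of that age, and those with 4 or 10 months share theirs. The F test over all ages called 29 members (46%, against 38.4%). Leaving out 1 array gave 8 to 12 members from 1 to 4 months, with 9 and 8 without replicates 1 and 3 of 1 month and 10 without replicate 1, 2 or 3 of 4 months. The 8 members without replicate 3 of 1 month were 12.7% of those tested, against 11.8% of all genes in the same fit, and the 10 without replicate 1 of 4 months were 15.9% against 15%, so the members' share then lay near the background. From 6 to 10 months it gave 9 to 15, with 9 without replicate 4 of 6 months or replicate 3 of 10 months. Of the 29, 19 had their highest mean at 10 months (65.5%, against 40% of all genes so called) and 13 their lowest at 1 month (44.8%, against 32.2%).

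**Figure D1:**
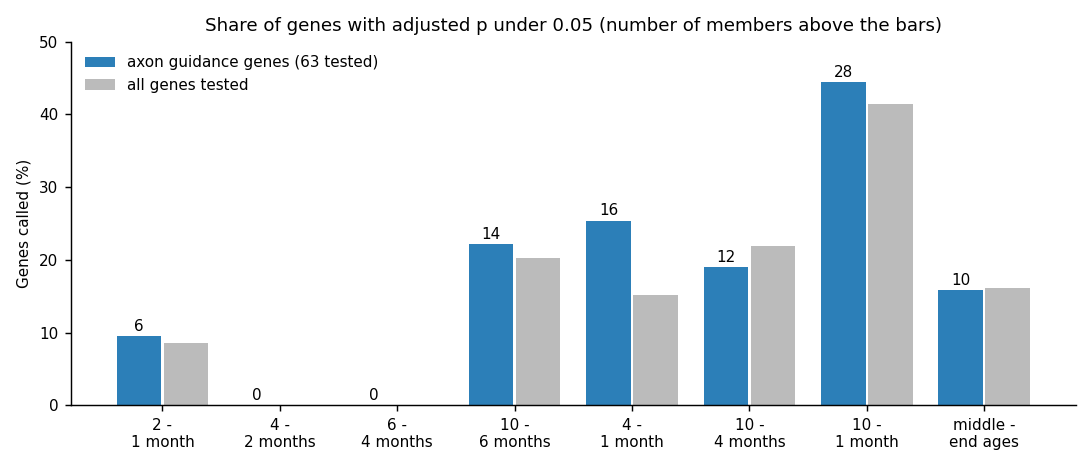
Share of the 63 tested guidance genes and of all 11836 tested genes called at an adjusted p under 0.05 in each comparison of ages (percent, bars from 0). The members' bar stands above that of all genes from 1 to 4 months (25.4% against 15.2%) and close to it between 1 and 10 months (44.4% against 41.4%). Without replicate 3 of 1 month the shares from 1 to 4 months were 12.7% and 11.8%, and without replicate 2 of 1 month 17.5% and 11.3%.

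**Figure D2:**
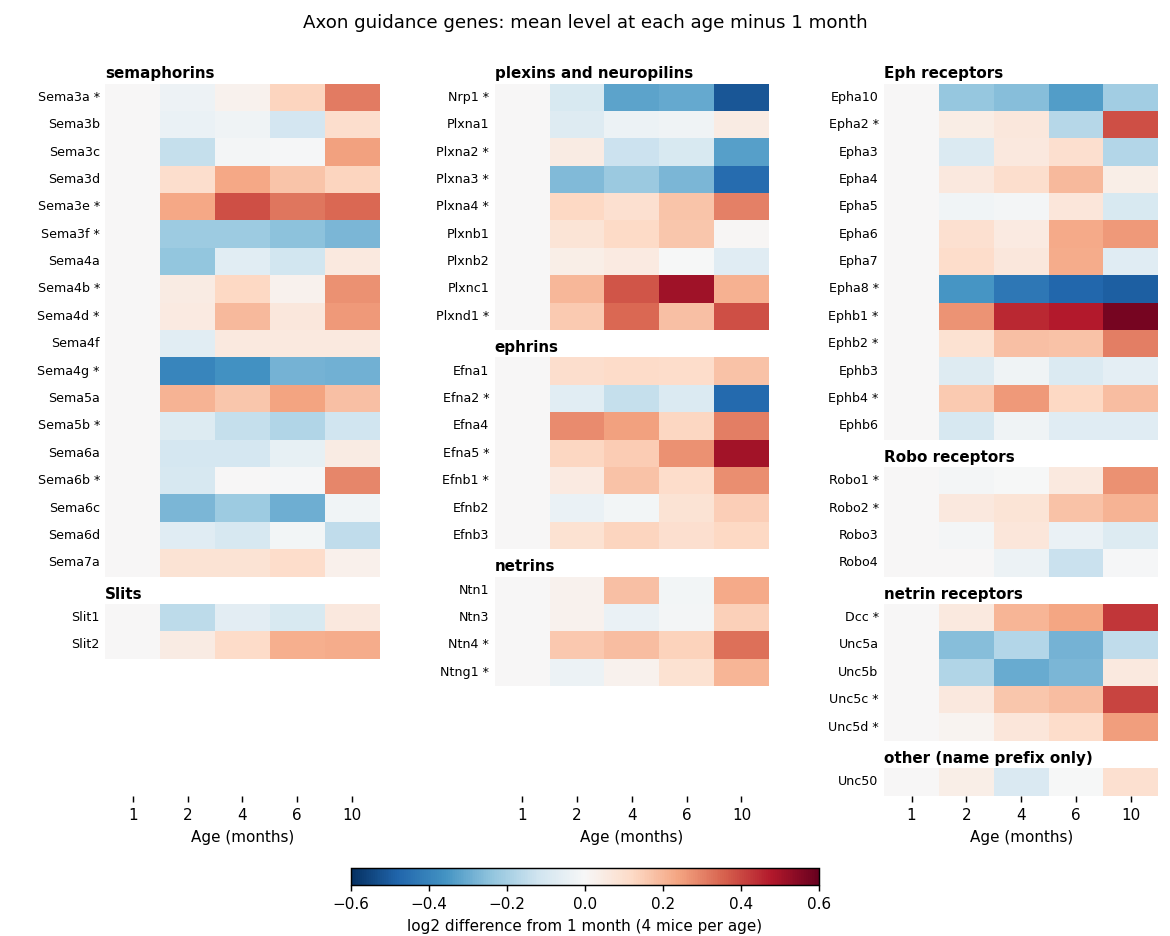
Difference of each age mean (n = 4 mice) from the 1-month mean on the log2 scale, for the 63 tested guidance genes sorted by family, with a star where 10 against 1 month was called. Stars mark 28 genes, 20 of them higher and 8 lower at 10 months.

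Among the 18 semaphorins, 8 were called between 1 and 10 months, 5 higher and 3 lower. That was 44.4%, against 41.4% of all genes (20.6% higher and 20.8% lower). Sema3e, a secreted ligand of Plxnd1 known for repelling vessels, rose from 1 to 4 months by 0.39 ± 0.11 (SE, adjusted p = 0.0247) and stayed up, at 0.35 ± 0.11 (SE, adjusted p = 0.0183) for 10 against 1 month. Sema4g, a membrane-bound semaphorin, took the largest early fall of the family, -0.39 ± 0.07 (SE, adjusted p = 0.0018) by 2 months. Sema4g levels were 8.91, 8.81, 8.70 and 8.66 at 1 month and 8.60, 8.52, 8.44 and 8.38 at 10 months, with 8.29 to 8.48 at 2 months, 8.36 to 8.49 at 4 months and 8.33 to 8.62 at 6 months. Every array of the 4 later ages lay below every array of 1 month, and the fall was -0.36 ± 0.07 (SE, adjusted p = 0.00187) at 4 months and -0.29 ± 0.07 (SE, adjusted p = 0.0031) at 10 months. Sema3e levels were 6.69, 6.52, 6.73 and 6.68 at 1 month and 7.29, 6.99, 6.84 and 6.90 at 10 months, with 6.63 to 7.10 at 2 months, 6.89 to 7.30 at 4 months and 6.81 to 7.12 at 6 months. The 1-month arrays lay below those of 4 and 10 months without overlap, while replicate 1 of 2 months lay within the 1-month range.

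Later risers were Sema3a, Sema4b and Sema6b. Sema6b levels were 9.39, 9.36, 9.21 and 9.28 at 1 month and 9.52, 9.66, 9.62 and 9.61 at 10 months, with 9.08 to 9.27 at 2 months, 9.27 to 9.34 at 4 months and 9.20 to 9.38 at 6 months. Sema6b, a membrane-bound ligand of A-class plexins, lay between 9.08 and 9.39 through 6 months and was above every earlier array at 10 months. It rose by 0.30 ± 0.06 (SE, adjusted p = 0.0011) from 6 to 10 months and by 0.29 ± 0.06 (SE, adjusted p = 0.0005) from 1 to 10 months. Sema3a, a secreted ligand that signals through Nrp1 with A-class plexins, had levels of 7.24, 7.28, 7.08 and 7.33 at 1 month and 7.62, 7.52, 7.42 and 7.63 at 10 months, groups that did not overlap, a difference of 0.31 ± 0.09 (SE, adjusted p = 0.00675). Sema4b rose by 0.27 ± 0.06 (SE, adjusted p = 0.00183) over the same span. Of the class known to confine inner retinal neurites to their layers, Sema5b fell by 0.12 ± 0.05 (SE, adjusted p = 0.0431) from 1 to 10 months, with overlapping groups, and Sema5a differed by 0.18 ± 0.08 (SE, adjusted p = 0.0861). Sema6a, a partner of Plxna2 and Plxna4 in retinal layering, differed by 0.05 ± 0.06 (SE, adjusted p = 0.591). Sema3f, called lower, and Sema4d, called higher, complete the 8 and were named after their values were seen.

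The Sema3e calls rested on single arrays. From 1 to 4 months the adjusted p was 0.0799 without replicate 2 of 1 month and 0.0909 without replicate 3 of 4 months, and from 1 to 10 months it was 0.0588 without replicate 2 of 1 month and 0.0786 without replicate 1 of 10 months. With quantile normalization these 2 values were 0.0925 and 0.0718. For Sema5b between 1 and 10 months it was 0.113, 0.0618 and 0.0912 without replicates 1, 3 and 4 of 1 month, and 0.126 and 0.0974 without replicates 1 and 4 of 10 months.

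Plexins and neuropilins, the semaphorin receptors, moved in both directions, with Plxnd1 and Plxna4 higher and Plxna2, Plxna3 and Nrp1 lower at 10 than at 1 month. These were 5 of 9 tested (55.6%, against 41.4% of all genes). Plxnd1, the receptor of Sema3e, rose early. Plxnd1 levels were 8.09, 7.97, 8.08 and 8.09 at 1 month and 8.43, 8.49, 8.41 and 8.43 at 10 months, with 8.12 to 8.32 at 2 months, 8.31 to 8.50 at 4 months and 8.14 to 8.30 at 6 months. All arrays of 4 and 10 months exceeded all of 1 month, and the rise was 0.35 ± 0.05 (SE, adjusted p = 0.000316) by 4 months and 0.39 ± 0.05 (SE, adjusted p = 1.76e-05) by 10 months. Replicate 2 was the lowest array of 1 month. The mean at 6 months lay below those of 4 and 10 months, and the step from 6 to 10 months was 0.21 ± 0.05 (SE, adjusted p = 0.0111), or 0.20 (adjusted p = 0.0621) with a covariate for the Y-linked level.

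Plxna3, a receptor shared by secreted semaphorins and by Sema5a and Sema5b, fell in both steps. Plxna3 levels were 8.34, 8.30, 8.31 and 8.16 at 1 month and 7.92, 7.81, 7.82 and 7.72 at 10 months, with 7.93 to 8.08 at 2 months, 7.98 to 8.12 at 4 months and 7.85 to 8.10 at 6 months. The arrays of 1 month were the highest 4 of all 20 and those of 10 months lay below every 1-month array. The falls were -0.22 ± 0.06 (SE, adjusted p = 0.0196) from 1 to 4 months, -0.24 ± 0.06 (SE, adjusted p = 0.0102) from 4 to 10 months and -0.46 ± 0.06 (SE, adjusted p = 1.02e-05) from 1 to 10 months. Plxna2 had 10.62, 10.54, 10.38 and 10.77 at 1 month and 10.26, 10.37, 10.17 and 10.18 at 10 months. Its groups were apart by a narrow margin, since replicate 3 of 1 month lay close to replicate 2 of 10 months, and the difference was -0.33 ± 0.07 (SE, adjusted p = 0.000931). Plxna4, in contrast, rose by 0.30 ± 0.08 (SE, adjusted p = 0.00341), and Plxna1 differed by 0.05 ± 0.07 (SE, adjusted p = 0.599).

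Nrp1, a co-receptor for secreted semaphorins and for vascular endothelial growth factor, had the largest fall of the 63 members between 1 and 10 months. Nrp1 levels were 7.70, 7.55, 7.46 and 7.76 at 1 month and 6.97, 7.06, 7.08 and 7.32 at 10 months, with 7.47 to 7.62 at 2 months, 7.07 to 7.55 at 4 months and 7.21 to 7.37 at 6 months. No array of 10 months reached the lowest of 1 month, and the mean fell by 0.51 ± 0.09 (SE, adjusted p = 0.00019). From 1 to 4 months the difference was -0.32 ± 0.09 (SE, adjusted p = 0.0236), but replicate 1 of 4 months lay within the 1-month range. That earlier call was lost without replicate 1 or 4 of 1 month (adjusted p = 0.0699 and 0.0724) and without replicate 2 or 4 of 4 months (0.0585 and 0.0744). With Nrp1's brightest probe set alone the differences were 0.03 at 4 months and 0.01 at 10 months, the opposite sign. Endothelial and pericyte genes moved beside it: 7 of 13 tested were called lower from 1 to 4 months, against 8.26% of all genes. The mean level of these genes was 7.47 to 7.63 at 1 month, 7.12 to 7.29 at 4 months and 7.10 to 7.26 at 10 months. Their part in the Nrp1 result was not tested.

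Plxnc1, the receptor of the membrane-anchored Sema7a, rose and then fell back in part. Its levels were 8.28, 8.13, 7.92 and 8.24 at 1 month, 8.66, 8.58, 8.56 and 8.28 at 4 months and 8.60, 8.73, 8.60 and 8.67 at 6 months, then 8.47, 8.16, 8.31 and 8.47 at 10 months. All 6-month arrays lay above all arrays of 1 and 10 months. The rise from 1 to 4 months was 0.38 ± 0.09 (SE, adjusted p = 0.00621) and the fall from 6 to 10 months was -0.29 ± 0.09 (SE, adjusted p = 0.0214), which left 0.21 ± 0.09 (SE, adjusted p = 0.0565) for 10 against 1 month. The fall was lost without replicate 2 or 4 of 6 months (adjusted p = 0.0612 and 0.0515), without replicate 2 or 3 of 10 months (0.0785 and 0.0534) and with a covariate for the Y-linked level (0.362). Without replicate 1 or 4 of 1 month, or replicate 2 of 10 months, the 10 against 1 month difference passed the threshold (adjusted p = 0.0351, 0.0462 and 0.0174).

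Of the 7 ephrins, Efna5 and Efnb1 rose and Efna2 fell between 1 and 10 months (3 called, 42.9%, against 41.4% of all genes). Efna5, an ephrin of the A class that takes part in mapping ganglion cell axons onto their targets, climbed over the whole course. Efna5 levels were 7.91, 8.01, 7.91 and 7.96 at 1 month and 8.71, 8.34, 8.43 and 8.32 at 10 months, with 8.02 to 8.14 at 2 months, 7.87 to 8.28 at 4 months and 8.08 to 8.36 at 6 months. The 10-month arrays were above every array of 1 month and above all of 4 months, with a rise of 0.50 ± 0.09 (SE, adjusted p = 0.000211) in all, 0.35 ± 0.09 (SE, adjusted p = 0.00971) of it after 4 months. With a covariate for the pigment epithelium level the later rise was 0.24 (adjusted p = 0.184). Efna2, of the same class, moved the other way. It had 6.82, 6.88, 6.81 and 6.82 at 1 month against 6.08, 6.47, 6.32 and 6.59 at 10 months, groups without overlap, a difference of -0.47 ± 0.09 (SE, adjusted p = 0.000395), though its value rests on 3 probe sets, all lower. Efnb1, which binds the B class of Eph receptors, had 8.61, 8.59, 8.56 and 8.60 at 1 month and 8.80, 8.93, 8.95 and 8.79 at 10 months, again apart, and rose by 0.28 ± 0.06 (SE, adjusted p = 0.000554). That rise was 0.18 (adjusted p = 0.0633) with a covariate for the Y-linked level. Efnb2 differed by 0.15 ± 0.09 (SE, adjusted p = 0.202).

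Eph receptors held the largest rise of all members and a large fall, Ephb1 and Epha8, of 13 tested and 5 called between 1 and 10 months (4 higher, 1 lower). The share called was 38.5%, against 41.4% of all genes. Ephb1 is known for turning ganglion cell axons to the same side of the brain. Ephb1 levels were 8.56, 8.60, 8.45 and 8.61 at 1 month and 8.99, 9.07, 9.19 and 9.26 at 10 months, with 8.69 to 8.91 at 2 months, 8.93 to 9.19 at 4 months and 8.91 to 9.18 at 6 months. The 1-month arrays were the lowest 4 of the 20, and no array of a later age came within their range. Ephb1 rose by 0.27 ± 0.08 (SE, adjusted p = 0.0347) by 2 months, 0.45 ± 0.08 (SE, adjusted p = 0.000598) by 4 months and 0.57 ± 0.08 (SE, adjusted p = 9.47e-06) by 10 months, a fold of 1.49. The 2-month call was lost without replicate 1, 2 or 3 of either age (adjusted p = 0.0637 to 0.107). Ephb2, which acts with its relatives in guiding ganglion cell axons to the optic disc, had 9.20, 9.15, 8.97 and 9.15 at 1 month and 9.33, 9.38, 9.52 and 9.47 at 10 months, which did not overlap, and rose by 0.31 ± 0.06 (SE, adjusted p = 0.000286). Efnb1, Ephb1 and Ephb2 thus were each called higher at 10 months. Other B-class genes moved in both directions between 1 and 10 months. The mean went from 7.70 to 7.64 for Ephb3 and from 8.80 to 8.72 for Ephb6. It went from 6.67 to 6.85 for Ephb4, from 8.56 to 8.71 for Efnb2 and from 7.73 to 7.86 for Efnb3.

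Epha8, a receptor of A-class ephrins, fell early and stayed down. Epha8 levels were 10.09, 10.08, 9.83 and 9.80 at 1 month and 9.34, 9.54, 9.48 and 9.46 at 10 months, with 9.50 to 9.71 at 2 months, 9.43 to 9.57 at 4 months and 9.31 to 9.67 at 6 months. The 4 arrays of 1 month were the highest of the 20, and the fall was -0.43 ± 0.09 (SE, adjusted p = 0.00234) by 4 months and -0.50 ± 0.09 (SE, adjusted p = 0.000164) by 10 months. Some lens genes were also higher at 1 month. Of 8 tested, 3 were called lower and 0 higher in each of the comparisons of 2, 4 and 10 months with 1 month. Over all genes 5.22%, 8.26% and 20.8% were called lower, in the same order. The mean of the 12 measured was 6.24 to 6.83 on the arrays of 1 month, 5.50 to 5.78 at 2 months, 5.54 to 6.02 at 4 months, 5.53 to 6.60 at 6 months and 5.66 to 5.83 at 10 months. The part of lens tissue in the early falls of Epha8, Sema4g and Plxna3 was not tested. Epha5 and Epha7, receptors with parts in mapping ganglion cell axons onto their targets, were not called over the full span, with -0.10 ± 0.06 (SE, adjusted p = 0.222) and -0.07 ± 0.10 (SE, adjusted p = 0.584). Epha7 fell from 6 to 10 months by 0.30 ± 0.10 (SE, adjusted p = 0.0432), a call lost when 1 of 6 of the 8 arrays was left out, any but replicate 1 of 6 months and replicate 1 of 10 months (adjusted p = 0.0507 to 0.146). With its brightest probe set Epha7 differed by 0.06 from 6 to 10 months and by 0.25 from 1 to 10 months, the opposite sign.

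The windows of 250 bases before the starts of Ephb1 and Epha8 are shown because between 1 and 10 months these 2 receptors differed most among the Eph receptors, in opposite directions. Both are from RefSeq on GRCm38.p6, minus strand, written 5′ to 3′, with matches to 4 motifs on either strand in capitals. The GC box was searched as GGGCGG and the E-box as CACGTG, a palindrome. The core bound by CRX and OTX factors was searched as TAATCC, and the TATA box as TATAAA.
Ephb1, chr9:102354694-102354943: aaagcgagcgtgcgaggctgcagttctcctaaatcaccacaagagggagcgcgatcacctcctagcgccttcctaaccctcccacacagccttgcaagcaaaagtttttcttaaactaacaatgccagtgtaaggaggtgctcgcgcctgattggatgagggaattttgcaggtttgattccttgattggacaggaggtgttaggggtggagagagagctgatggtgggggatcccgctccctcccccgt
Epha8, chr4:136956817-136957066: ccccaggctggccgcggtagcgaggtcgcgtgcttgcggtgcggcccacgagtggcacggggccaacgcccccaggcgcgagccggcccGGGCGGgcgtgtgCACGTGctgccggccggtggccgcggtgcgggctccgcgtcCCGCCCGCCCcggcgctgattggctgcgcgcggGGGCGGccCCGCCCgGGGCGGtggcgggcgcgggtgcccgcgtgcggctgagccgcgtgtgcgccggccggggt
The Ephb1 window (GC content 54%) held none of the motifs, and the Epha8 window (84%) held 6 matches to the GC box, of which some adjoin, and 1 to the E-box. Of 69 windows found for 55 members, 71% held a GC box, 5.8% an E-box, 2.9% the CRX and OTX core and 2.9% a TATA box. Over all 32851 windows of this length the shares were 32.7%, 6.02%, 6.25% and 12.4%, in the same order. These windows were not limited to genes measured on the array, so they differ in kind from those of the members. A match describes the letters and not a bound site.

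Epha2, an A-class receptor of epithelia and vessels, stood apart at 10 months through part of its arrays. Its levels were 6.74, 6.78, 6.72 and 6.67 at 6 months and 7.77, 7.46, 6.99 and 6.92 at 10 months. Replicates 1 and 2 were far above every other array, while replicates 3 and 4 lay within the range of the younger ages except 6 months. The rise from 6 to 10 months was 0.56 ± 0.13 (SE, adjusted p = 0.00526) and that from 1 to 10 months 0.39 ± 0.13 (SE, adjusted p = 0.0247). The latter was lost without replicate 1 or 4 of 1 month (adjusted p = 0.0514 and 0.0584) and without replicate 1 or 2 of 10 months (0.104 and 0.0768). It was also lost with a covariate for the Y-linked level (0.106). Pigment epithelium genes averaged 8.34, 6.53, 7.58 and 7.95 on the same 4 arrays of 10 months, lowest on replicate 2. With that mean as a covariate Epha2 differed by 0.36 (adjusted p = 0.0883) between 1 and 10 months.

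**Figure D3:**
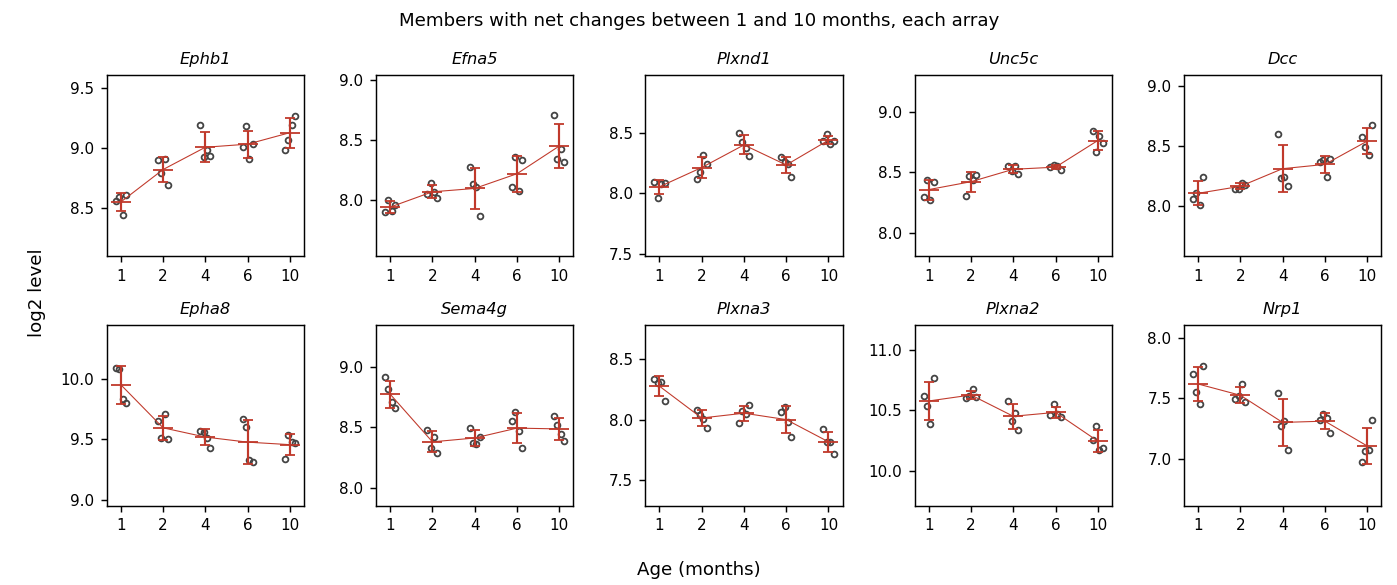
Log2 level of 10 guidance genes on each array by age in months, with the mean and SD of 4 mice. Ephb1, Efna5, Plxnd1, Unc5c and Dcc end above, and Epha8, Sema4g, Plxna3, Plxna2 and Nrp1 below, all of their 1-month arrays.

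Of the 4 Robos and 2 Slits, 2 genes were called between 1 and 10 months (33.3%, against 41.4% of all genes). Robo2 and Robo1, the main neuronal receptors of Slits, were called higher at 10 than at 1 month, and neither tested Slit was called. Robo2 had 10.28, 10.19, 10.17 and 10.31 at 1 month and 10.49, 10.36, 10.37 and 10.56 at 10 months, apart by a narrow gap, a rise of 0.21 ± 0.06 (SE, adjusted p = 0.00707). Robo1 had 8.38, 8.30, 8.06 and 8.45 at 1 month and 8.62, 8.52, 8.44 and 8.71 at 10 months, where replicate 3 of 10 months fell within the 1-month range, and rose by 0.27 ± 0.08 (SE, adjusted p = 0.0106). With the pigment epithelium level as a covariate the rises were 0.21 (adjusted p = 0.0828) for Robo1 and 0.17 (adjusted p = 0.053) for Robo2, and with the mean of the probe sets Robo2 gave 0.16 (adjusted p = 0.0786). Slit2, a repellent of ganglion cell axons, had 9.52, 9.40, 9.34 and 9.71 at 1 month and 10.06, 9.56, 9.57 and 9.66 at 10 months, with overlap, and differed by 0.22 ± 0.10 (SE, adjusted p = 0.0842), a difference that passed without replicate 4 of 1 month (adjusted p = 0.0288). Slit1 differed by 0.06 ± 0.06 (SE, adjusted p = 0.446). Robo4, a receptor of endothelial cells, differed by -0.01 ± 0.12 (SE, adjusted p = 0.966), beside 7 of 13 endothelial and pericyte genes called lower (20.8% of all genes).

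All 9 tested netrins and netrin receptors had a higher mean at 10 than at 6 months. The differences ran from 0.11 to 0.33, with a median of 0.19 against 0.03 for all genes. Of the 9, Ntn4, Unc5b and Unc5c were called (3, or 33.3%), against 8.56% of all genes called higher. Of 21 alternative settings, 7 lost the Ntn4 call, among them 3 of 8 that left out 1 array. The brightest probe set lost it too (adjusted p = 0.526). For Unc5c the call was lost in 2 of 21 settings and for Unc5b in 0. The F test over the ages called 7 of the 9, all 5 receptors and 2 netrins (38.4% of all genes). Ntn4, a netrin of basement membranes, had 8.04, 8.08, 7.89 and 8.08 at 1 month and 8.32, 8.29, 8.34 and 8.47 at 10 months, with no overlap, and rose by 0.33 ± 0.06 (SE, adjusted p = 0.000144). Ntng1, a netrin tethered to the membrane of axons, was called higher as well and was named after its values were seen. Ntn1, the secreted netrin of the optic disc, had 6.29, 6.58, 6.79 and 6.52 at 1 month and 6.65, 6.80, 7.02 and 6.62 at 10 months, which overlapped, and differed by 0.23 ± 0.14 (SE, adjusted p = 0.2).

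Dcc, Unc5c and Unc5d rose between 1 and 10 months. Unc5c levels were 8.30, 8.44, 8.27 and 8.42 at 1 month and 8.84, 8.66, 8.80 and 8.74 at 10 months, with 8.30 to 8.48 at 2 months, 8.48 to 8.55 at 4 months and 8.52 to 8.56 at 6 months. Every 10-month array of Unc5c lay above every array of the 4 younger ages, and the rise was 0.22 ± 0.05 (SE, adjusted p = 0.00555) after 6 months and 0.41 ± 0.05 (SE, adjusted p = 7.08e-06) in all. With the pigment epithelium covariate the rise after 6 months was 0.17 (adjusted p = 0.0876). Dcc levels were 8.06, 8.11, 8.01 and 8.25 at 1 month and 8.57, 8.49, 8.43 and 8.67 at 10 months, with 8.15 to 8.20 at 2 months, 8.17 to 8.60 at 4 months and 8.25 to 8.39 at 6 months. Replicate 1 of 4 months stood far above its group and at the level of 10 months, and the groups of 1 and 10 months were apart by 0.43 ± 0.08 (SE, adjusted p = 0.000258). From 4 to 10 months Dcc differed by 0.23 ± 0.08 (SE, adjusted p = 0.0471), with overlap. That call was lost without replicate 2, 3 or 4 of 4 months (adjusted p = 0.124, 0.118 and 0.119) and without replicate 1, 2 or 4 of 10 months (0.0985, 0.0587 and 0.141). Unc5d had 8.53, 8.53, 8.27 and 8.49 at 1 month and 8.64, 8.71, 8.67 and 8.80 at 10 months, with replicate 3 of 1 month far below the rest, and rose by 0.25 ± 0.06 (SE, adjusted p = 0.00225).

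Some marker genes of inner retinal cells and of Muller glia, the support cells of the retina, changed over the same span. Over all genes tested, 20.6% were called higher and 20.8% lower between 1 and 10 months, and 6.9% higher from 1 to 4 months. Of 12 Muller glia genes, 11 were called higher and 0 lower between 1 and 10 months, and 10 were called higher from 1 to 4 months (10.1 to 10.2 at 1 month, then 10.5 to 10.7 at 10 months). Of 11 tested bipolar cell genes, 6 were called higher and 2 lower. Of 11 tested ganglion cell genes, 6 were called higher and 0 lower between 1 and 10 months, with a mean level of 8.89 to 8.97 at 1 month and 9.04 to 9.16 at 10 months. Of 11 amacrine cell genes, 7 were called higher and 0 lower (9.22 to 9.34, then 9.46 to 9.54). Of 7 tested horizontal cell genes, 4 were called higher and 0 lower. Of 10 cone genes, 6 were called lower and 1 higher between 1 and 10 months. From 6 to 10 months 7 were called lower and 0 higher (11.4 to 11.6, then 11.2 to 11.3), against 11.7% and 8.56% of all genes. The part of these cell types in the changes of guidance genes was not tested.

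Unc5b, the Unc5 receptor best known from vessels, was the one member called in one direction from 1 to 4 months and in the other from 4 to 10 months, a pattern of 1.14% of all genes. Unc5b levels were 8.06, 8.17, 8.07 and 8.03 at 1 month and 8.22, 8.27, 8.01 and 8.06 at 10 months, with 7.83 to 8.004 at 2 months, 7.72 to 7.86 at 4 months and 7.65 to 7.88 at 6 months. All 12 arrays of the middle ages lay below all 8 of 1 and 10 months, by a narrow gap between replicate 1 of 2 months (8.004) and replicate 3 of 10 months (8.013). Unc5b fell by 0.30 ± 0.07 (SE, adjusted p = 0.00458) from 1 to 4 months and rose by 0.36 ± 0.07 (SE, adjusted p = 0.000795) from 4 to 10 months, so that 10 against 1 month gave 0.06 ± 0.07 (SE, adjusted p = 0.498). With its brightest probe set the values were -0.04 (adjusted p = 0.842) and 0.10 (adjusted p = 0.634), and neither was called. The endothelial and pericyte genes were at 7.47 to 7.63 at 1 month and 7.10 to 7.26 at 10 months. Their part in the Unc5b values was not tested. Plxna3 and Unc5c were called in the same direction in both steps (3.72% of all genes). Their calls from 1 to 4 months were lost when single arrays were left out: for Plxna3 the arrays 1, 2 and 3 of the youngest age and array 1 of 4 months, giving adjusted p from 0.0526 to 0.0613, and for Unc5c the arrays 1 and 3 of the youngest age and 1, 2 and 3 of 4 months, giving 0.069 to 0.11.

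Set as a mean of 2, 4 and 6 months against a mean of 1 and 10 months, 10 members were called (15.9%, against 16.2% of all genes), 2 higher and 8 lower in the middle (8.53% and 7.68% of all genes). Unc5b differed by -0.28 ± 0.04 (SE, adjusted p = 0.00024) and was the one member whose arrays did not overlap, a property of 0.389% of all genes. Plxnc1 was higher in the middle by 0.25 ± 0.06 (SE, adjusted p = 0.00461). Lower in the middle, with overlapping arrays, were Sema6b at -0.18 ± 0.04 (SE, adjusted p = 0.00282), Unc5a at -0.16 ± 0.05 (SE, adjusted p = 0.0208) and Slit1 at -0.14 ± 0.04 (SE, adjusted p = 0.0247). Unc5a had fallen by 2 months, by 0.26 ± 0.07 (SE, adjusted p = 0.0311), a call lost without replicate 1, 2 or 3 of 1 month and without replicate 2, 3 or 4 of 2 months (0.0701 to 0.101). Sema4g, Epha8, Sema4a and Sema6c were called lower in the middle too, and Plxnb1 higher. Sema4g and Epha8 were high at 1 month and low at 10 months, so for them this contrast does not describe a return. Nor does it for Sema6b, whose means were 9.31, 9.21, 9.31 and 9.30 at 1, 2, 4 and 6 months and 9.60 at 10 months. The Epha8 call (adjusted p = 0.0415) was lost when 1 of 12 of the 20 arrays was left out (0.0517 to 0.102). With the pigment epithelium level as a covariate 3 members were called. Slit1 lost its call without replicate 4 of 1 month (adjusted p = 0.057) or replicate 2 of 10 months (0.0536), and Unc5a without replicate 2 of 1 month (0.0527).

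**Figure D4:**
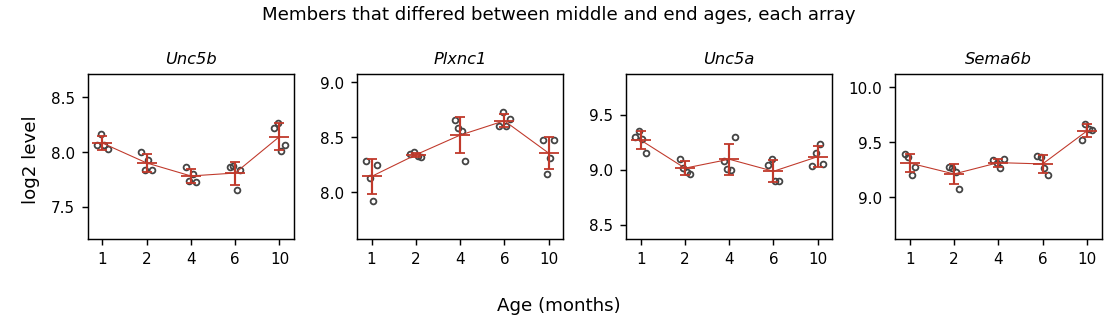
Log2 level of Unc5b, Plxnc1, Unc5a and Sema6b on each array by age in months, with the mean and SD of 4 mice. For Unc5b all 12 arrays of 2, 4 and 6 months lie below all 8 arrays of 1 and 10 months, and for the other genes the arrays of middle and end ages overlap.

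The probe sets along a gene were compared as a description, since they measure the same RNA and are not independent. Between 1 and 10 months all 43 probe sets of Plxnd1, all 20 of Ephb1, all 20 of Unc5c, all 34 of Plxna4 and 36 of 37 of Dcc were higher. All 37 of Plxna2, 33 of 34 of Plxna3, 18 of 19 of Epha8 and 18 of 20 of Nrp1 were lower. Slit2, which was not called, had all 44 higher. From 6 to 10 months all 20 of Unc5b were higher, and from 1 to 4 months all 29 of Plxnc1 were higher and all 21 of Sema4g lower. With each gene reduced to its brightest probe set, 14 members were called between 1 and 10 months in place of 28. Ephb1, Efna5, Efna2, Efnb1, Epha2, Epha8, Plxna2, Plxna3 and Dcc were still called. Ephb2, Ntn4, Plxna4, Plxnd1, Robo1, Robo2, Sema3a, Sema3e, Sema4b, Sema4g, Sema5b, Sema6b, Unc5c and Unc5d were not, at adjusted p from 0.055 for Unc5d to 0.443 for Sema3a. Nor was Nrp1, whose sign turned (0.006, adjusted p = 0.98). In the other comparisons the calls that held with the brightest probe set were Epha8 for 2 against 1 month, Epha8, Ephb1, Plxna3 and Plxnc1 for 4 against 1, Efna2, Plxna3 and Unc5b for 10 against 6, Efna2, Efna5 and Plxna2 for 10 against 4 and Plxnc1 for middle against end ages. Epha2 from 6 to 10 months was 0.17 (adjusted p = 0.492).

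Genes that act with or after these ligands and receptors were taken from 4 lists of 82 genes, of which 71 were tested. Between 1 and 10 months 28 were called, 17 higher and 11 lower (39.4%, against 41.4% of all genes), with a median of 0.03 against 0.04. For semaphorins and plexins 9 of 24 were called, 5 higher and 4 lower: Crmp1, a mediator of Sema3a signals in the growth cone, rose by 0.45 ± 0.06 (SE, adjusted p = 5.59e-06), and Farp2, an exchange factor bound to A-class plexins, fell by 0.62 ± 0.06 (SE, adjusted p = 4.31e-07). For ephrins and Eph receptors 9 of 18 were called, 4 higher and 5 lower, led by Inppl1, a lipid phosphatase that binds Epha2, at -0.79 ± 0.12 (SE, adjusted p = 5.25e-05), and Chn2, a Rac inhibitor of the chimaerin family, at 0.48 ± 0.06 (SE, adjusted p = 5.67e-06). For Slits and Robos 3 of 13 were called, with Nell2, a secreted ligand of Robo3, at 0.54 ± 0.07 (SE, adjusted p = 4.23e-06), Gpc1, a Slit-binding proteoglycan, at 0.24 ± 0.07 (SE, adjusted p = 0.00663), and Arhgap39, a partner of Robo receptors, at -0.65 ± 0.09 (SE, adjusted p = 1.90e-05). For netrins 7 of 16 were called, 6 higher and 1 lower. Among these, Neo1, a receptor related to Dcc, rose by 0.37 ± 0.06 (SE, adjusted p = 0.000137), Flrt1, of a family of surface proteins that bind Unc5 receptors, by 0.48 ± 0.07 (SE, adjusted p = 2.24e-05), and Lrrc4c, the partner of Ntng1, by 0.46 ± 0.18 (SE, adjusted p = 0.0485). From 1 to 4 months 9 of the 71 were called, 5 higher and 4 lower (12.7%, against 15.2%), among them Dscam, which spaces retinal neurites, at -0.31 ± 0.05 (SE, adjusted p = 0.000733).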

How the data were processed

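Per the labels' protocols, RNA of both retinas of a mouse was depleted of ribosomal RNA, amplified as sense-strand cDNA and hybridised to Affymetrix exon arrays. The deposited values are log2 intensities per probe set, which the authors made with RMA per the submitters' processing notes; its version is not given in the sources used here. RMA gives arrays a common distribution, so a shift of all genes would not be seen, and 4 arrays per age limit the precision. Of 194293 probe sets, 179496 named 1 gene symbol in the platform's gene table, 1328 several and 13469 none, and only the first were used. Symbols were updated through the RefSeq table of GRCm38.p6 (2039 changed), which left 15781 genes. Probe sets carry no coordinates here, as no genome build is stated for them.

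Probe sets were summarised by median polish per gene (median of 9 per gene). Genes in the lowest 25% of mean level were left out. The 20 arrays were fitted together with 1 mean per age in limma 3.58.1 under R 4.3.3 (lmFit, then eBayes), which leaves 15 residual degrees of freedom. Tests were two-sided, p-values were adjusted by Benjamini-Hochberg over 11836 genes, and the threshold was 0.05. The steps were tested on simulated data. Figures were drawn with matplotlib 3.10.9.

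The members, gene lists, marker lists and the naming rule were chosen with earlier results of these data known. Given with values are the 12 members with the largest range of age means among those called by the F test, up to 4 risers and 4 fallers of each comparison with arrays that do not overlap, the member of smallest F test p in each family, and members with known roles in the retina. Alternatives replaced median polish by the probe sets' mean or the brightest one, removed the dim filter or raised it to 50%, and used quantile normalization, median centring, array weights, eBayes with trend and robust options, a replicate block, a Y-linked covariate, fits on the arrays of 2 ages, and leaving out each array. A fit on arrays of high Y-linked level and a pigment epithelium covariate were added after seeing the data.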

Additional observations from a re-analysis of the deposited data

Results flagged for a closer look

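The levels of 37 named guidance genes at 5 ages gave 185 groups of 4 arrays. In 9 of these groups the gap between 1 array and its nearest neighbour was too large a part of the group's whole range by Dixon's test at 95%. Chance alone gives about 1 such group in 20, and 9 of 185 is near that rate. Dcc at 4 months was 8.60 on replicate 1, against 8.17 to 8.24 on the others. On replicate 3 of 6 months Dcc was 8.25, where the others lay between 8.37 and 8.39. Replicate 1 of 2 months gave 8.77 for Efnb1 and the others 8.59 to 8.62. Ntn1 at 2 months was 6.31 on replicate 3, against 6.63 to 6.69 on the others. On replicate 3 of 2 months Plxna2 was 10.68, where the others lay between 10.61 and 10.61. Replicate 2 of 1 month gave 7.97 for Plxnd1 and the others 8.08 to 8.09. Sema6a at 1 month was 9.39 on replicate 3, against 9.55 to 9.59 on the others. On replicate 3 of 6 months Unc5b was 7.65, where the others lay between 7.84 and 7.88. Replicate 3 of 1 month gave 8.27 for Unc5d and the others 8.49 to 8.53.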

How the results depend on the processing

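The number of members called was recomputed under each alternative. With the brightest probe set of each gene it fell from 29 to 9 for the F test, from 6 to 1 for 2 against 1 month, from 16 to 4 for 4 against 1, from 14 to 3 for 10 against 6, from 12 to 3 for 10 against 4, from 28 to 14 for 10 against 1 month and from 10 to 1 for middle against end ages. Over all genes this setting called 2416 in place of 4544 by the F test, 344 in place of 1008 for 2 against 1 month and 840 in place of 1795 for 4 against 1. It called 988 in place of 2400 for 10 against 6 and 1077 in place of 2592 for 10 against 4. For 10 against 1 month it called 3294 in place of 4900, and for middle against end ages 723 in place of 1919. With array weights the members' count was 15 for 2 against 1 month and 17 for middle against end ages. Over all genes those weights called 2372 and 2794, in place of 1008 and 1919. With a covariate for the Y-linked level the members' count was 0 for 2 against 1 month and 9 for 10 against 6. Over all genes that covariate left 125 and 1715. With no filter on dim genes 10 members were called for 4 against 1, and 1520 of the larger set of genes then tested. Fits on the arrays of 2 ages, which leave fewer degrees of freedom, gave 6 for 4 against 1, 9 for 10 against 6 and 3 for 10 against 4. Over all genes these fits called 1049, 1853 and 1100, in the same order. Of the settings added after seeing the data, arrays of high Y-linked level gave 10 for 4 against 1, 7 for 10 against 6 and 7 for 10 against 4. Over all genes they gave 1504, 1494 and 1754. The pigment epithelium covariate gave 6 for 10 against 6, 3 for 10 against 4 and 3 for middle against end ages. Over all genes it gave 1333, 1112 and 930. The cause of these changes in count was not tested. Other settings, the mean of the probe sets, a 50% filter, quantile normalization, median centring and trend and robust eBayes, kept each count within 1.5 times.

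Leaving out each array in turn gave 25 to 34 members for the F test, 2 to 8 for 2 against 1 month, 8 to 12 for 4 against 1, 9 to 15 for 10 against 6, 9 to 13 for 10 against 4, 25 to 30 for 10 against 1 and 7 to 12 for middle against end ages. It gave 0 for 4 against 2 and for 6 against 4 months. For 2 against 1 month the count was 3 and 2 without replicates 1 and 2 of 1 month (4.76% and 3.17%, against 5.97% and 5.28% of all genes). Without replicates 2 and 4 of 2 months it was 3 and 2 (4.76% and 3.17%, against 5.2% and 4.52%). For 4 against 1 it was 9 and 8 without replicates 1 and 3 of 1 month and 10 without replicate 1, 2 or 3 of 4 months. For 10 against 6 it was 9 without replicate 4 of 6 months or replicate 3 of 10 months.

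Of 74 calls of named genes, 11 held under every setting, 53 were not kept with the brightest probe set, 18 were lost with the Y-linked covariate and 30 when some array was left out. Signs turned with the brightest probe set for Nrp1 (0.033 for 4 against 1 month, 0.006 for 10 against 1) and for Epha7 (0.055 for 10 against 6, 0.249 for 10 against 1). The same replicate number was not taken to pair mice. With age means removed, 10 of 40 pairs of arrays with the same number correlated above 0.1, with a mean of -0.051 against 0.017 for other pairs. Single pairs ran from -0.366 to 0.563 for replicate 1 and from -0.465 to 0.465 for replicate 3. These means cannot exclude that some arrays were handled together. With a replicate block the counts were 25 for the F test, 4 for 2 against 1 month, 11 for 4 against 1, 11 for 10 against 6, 10 for 10 against 4, 26 for 10 against 1 and 10 for middle against end ages.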
